A study of Delphinium anthriscifolium with 89 samples.

Results

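Stamens and carpels of *Delphinium anthriscifolium*, a larkspur of the buttercup family, were compared at floral stage S12. The 6 libraries were taken by sample title, 3 of stamens and 3 of carpels, out of 89 libraries in all. All 6 come from plants labelled WT, with no treatment given. The study profiled petals, sepals, stamens and carpels across floral stages S9, S10, S12 and S16, with leaves and bracts. The series also holds libraries labelled ans and ans-lmi1. The labels do not state whether replicates are separate plants, and every p below rests on library-to-library spread, some of which may be technical.

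Stamens are the pollen-bearing organs, each an anther on a filament, and the anther's nutritive layer and pollen mother cells carry a large set of transcripts found in few other tissues. Carpels enclose the ovules and carry the stigma that receives pollen. In model plants such as Arabidopsis, C-class MADS-box factors specify both organs, and B-class factors acting with them set stamens apart from carpels. The files give features by assembly ID without names, so no homeotic gene, pollen gene or ovule gene could be looked up. The organ labels at S12 were therefore only compared with those at other stages, as described below. That comparison shows whether labels agree across stages and cannot show that the organs are rightly named. A feature is 1 predicted reading frame of 1 assembled transcript, and features of 1 assembly gene can share reads.

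The 6 libraries held 6725952 to 12726312 estimated counts and detected 20747 to 22569 of 32115 features. Levels of single features are counts per 1e+06 counts of a library scaled by TMM, a factor per library that evens out composition (CPM). A count of 0 allows a level of up to 3 counts, which is 0.207 to 0.479 CPM on that scale, and this limit covers counting error only. Across features, log2 CPM correlated at 0.913 to 0.960 between stamen libraries, 0.939 to 0.973 between carpel libraries and 0.739 to 0.804 between the organs. Stamen replicate 3 differed most from its replicates, with 20747 features detected against 22254 and 22454 and with correlations of 0.913 and 0.930 against 0.960 between the other stamen libraries. Without it, 1544 features were called at S12 in place of the 2163 given below. Of the other stamen and carpel libraries, 7 of 16, at S9, S10 and S16, detected fewer than 19000 features. These 7 share the estimate of spread in the fit over 22 libraries. The S12 calls, the changes between stages and the shares of lists, except those from S10, are thus also given without them. In whole organs, fewer cells of a type and less RNA per cell cannot be told apart.

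At S12, 2163 of 21660 tested features (9.99%) differed between stamens and carpels at an adjusted p under 0.05 (edgeR quasi-likelihood test, Benjamini-Hochberg adjustment). Of these, 1298 (5.99% of the tested features) were higher in stamens and 865 (3.99%) were higher in carpels. The stamen-side differences were the larger ones, with a median of 15.5-fold against 6.94-fold for the carpel side. At 16-fold or more there were 639 stamen-side and 228 carpel-side features, and at 64-fold or more 419 and 91. The stamen side was also more often nearly absent from the other organ: 441 stamen-side features (34.0%) had a mean under 1 CPM in carpels, against 148 carpel-side features (17.1%) under 1 CPM in stamens. Over the stamen-side features, the median level was 104.8 CPM in stamens and 7.66 CPM in carpels. Over the carpel-side features it was 72.4 CPM in carpels and 11.4 CPM in stamens.

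**Figure D1:**
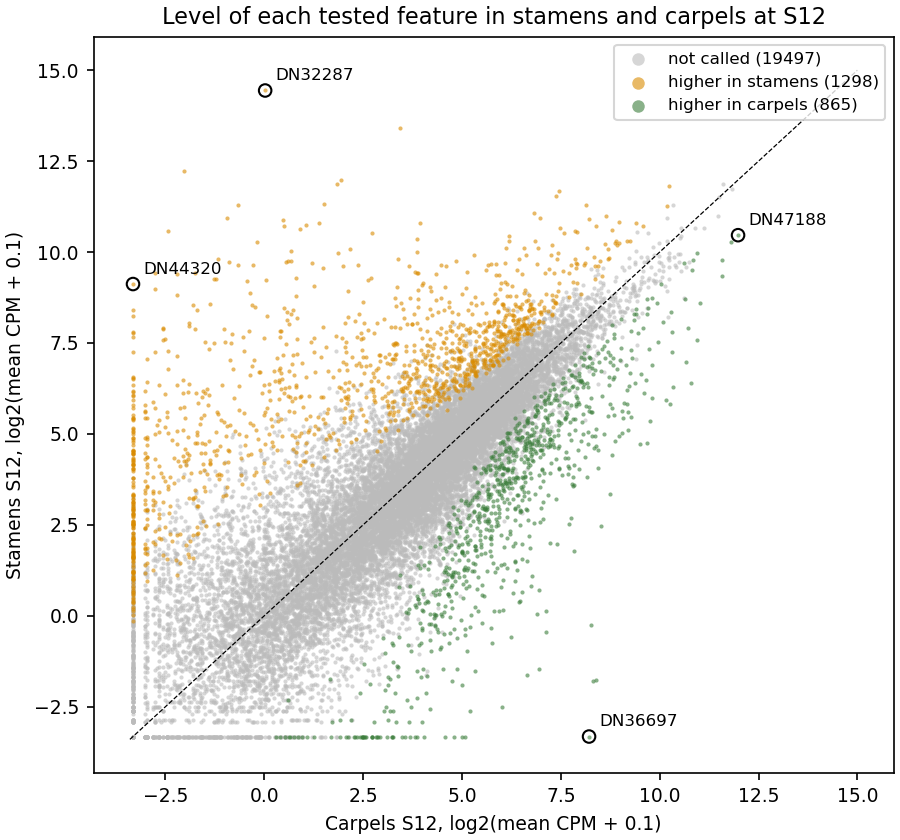
Each point is 1 of the 21660 tested features at S12, with its mean CPM over 3 carpel libraries on the x axis and over 3 stamen libraries on the y axis, both as log2(mean CPM + 0.1). Orange points were higher in stamens (1298), green points higher in carpels (865), and circles mark the 4 features described below. The orange points reach farther from the diagonal and line the left edge, where carpels had no counts.

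The number of differences depended on which libraries shared the estimate of spread. Fitted on the 6 S12 libraries alone, 19110 features were tested and 3989 were higher in stamens and 3354 in carpels. Fitted on the 15 libraries that remain without those under 19000 features, 4707 were higher in stamens and 4367 in carpels. Both fits again called 1235 of the 1298 stamen-side and 855 of the 865 carpel-side features. Of the 2163 called features, 2152 had groups that did not overlap, as did 48.8% of all tested features. With libraries scaled by their totals alone, 47.2% of the called features were on the stamen side, against 60.0% with TMM scaling. Leaving out stamen replicate 1 gave 1365 calls, and leaving out carpel replicate 1, 2 or 3 gave 1331, 1221 and 1265. Scaling by totals moved the median log2 difference over all tested features from -0.01 to -0.27.

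Among single features, the largest fitted stamen-side difference was that of DN44320_c0_g2_i1, at 15.15 on the log2 scale. With carpels at 0, that size depends on the small count added to zeros and is not a measured fold. Its levels were 461.5, 622.2 and 585.5 CPM in the 3 stamen libraries and 0 in the 3 carpel libraries, so the groups did not overlap. Against a floor of 3 counts over the 3 carpel libraries (0.0878 CPM), the pooled stamen counts were at least 6230-fold higher (edgeR adjusted p = 7.30e-06). This bound is below the 25800-fold of DN32287_c0_g1_i1, described next, which had counts in carpels. It was at 0 in all 8 carpel libraries of the other stages as well. In stamens its mean was 25.4 CPM at S9, 82.2 CPM at S10 and 0.608 CPM at S16, so S12 held the highest mean of the 4 stages.

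DN32287_c0_g1_i1 took more counts than any other feature in each S12 stamen library, at 1.6% to 2.45% of the total. Feature lengths are not in the files, so this is a share of counts and not a ranking per length. The 3 stamen libraries held 23740, 16740 and 26300 CPM and the 3 carpel libraries 0.689, 0.691 and 1.36 CPM. Every stamen library stood far above every carpel library, by 14.59 on the log2 scale (SE 1.42, edgeR adjusted p = 4.32e-06). Its stamen mean was 0 CPM at S9, 677.7 ± 874.8 CPM (SD, n = 3) at S10 and 278.4 ± 35.3 CPM (SD, n = 3) at S16. The S12 level was thus the highest of the stages measured, and the S10 libraries were widely spread, from 141.4 to 1687 CPM.

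On the carpel side, DN36697_c0_g2_i2 had the largest fitted difference, again set against zeros. It was at 0 in all 3 stamen libraries and at 305.8, 240.2 and 344.3 CPM in the carpel libraries, at least 2480-fold higher in carpels (edgeR adjusted p = 8.97e-05). In carpels its mean was 41.0 CPM at S9 and 235.7 CPM at S10, and at S16 it was 3109 ± 2549 CPM (SD, n = 3). The carpel levels at S16, from 1229 to 6011 CPM, all lay above those at S12.

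DN47188_c2_g1_i4 had the highest mean CPM among carpel-side features. It was abundant in both organs, at 844.7, 1435 and 1956 CPM in stamens and 2672, 3460 and 6003 CPM in carpels. The groups did not overlap, and the log2 difference was -1.52 (SE 0.39, edgeR adjusted p = 0.0150). The call was lost without stamen replicate 1 (adjusted p = 0.122), stamen replicate 2 (0.0639) or carpel replicate 3 (0.151). At S10 the means were 4059 CPM in stamens and 3046 CPM in carpels, and at S16 343.3 CPM and 4376 CPM. The sepals held more of it than either organ, with group means of 8358 to 10020 CPM at S12.

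**Figure D2:**
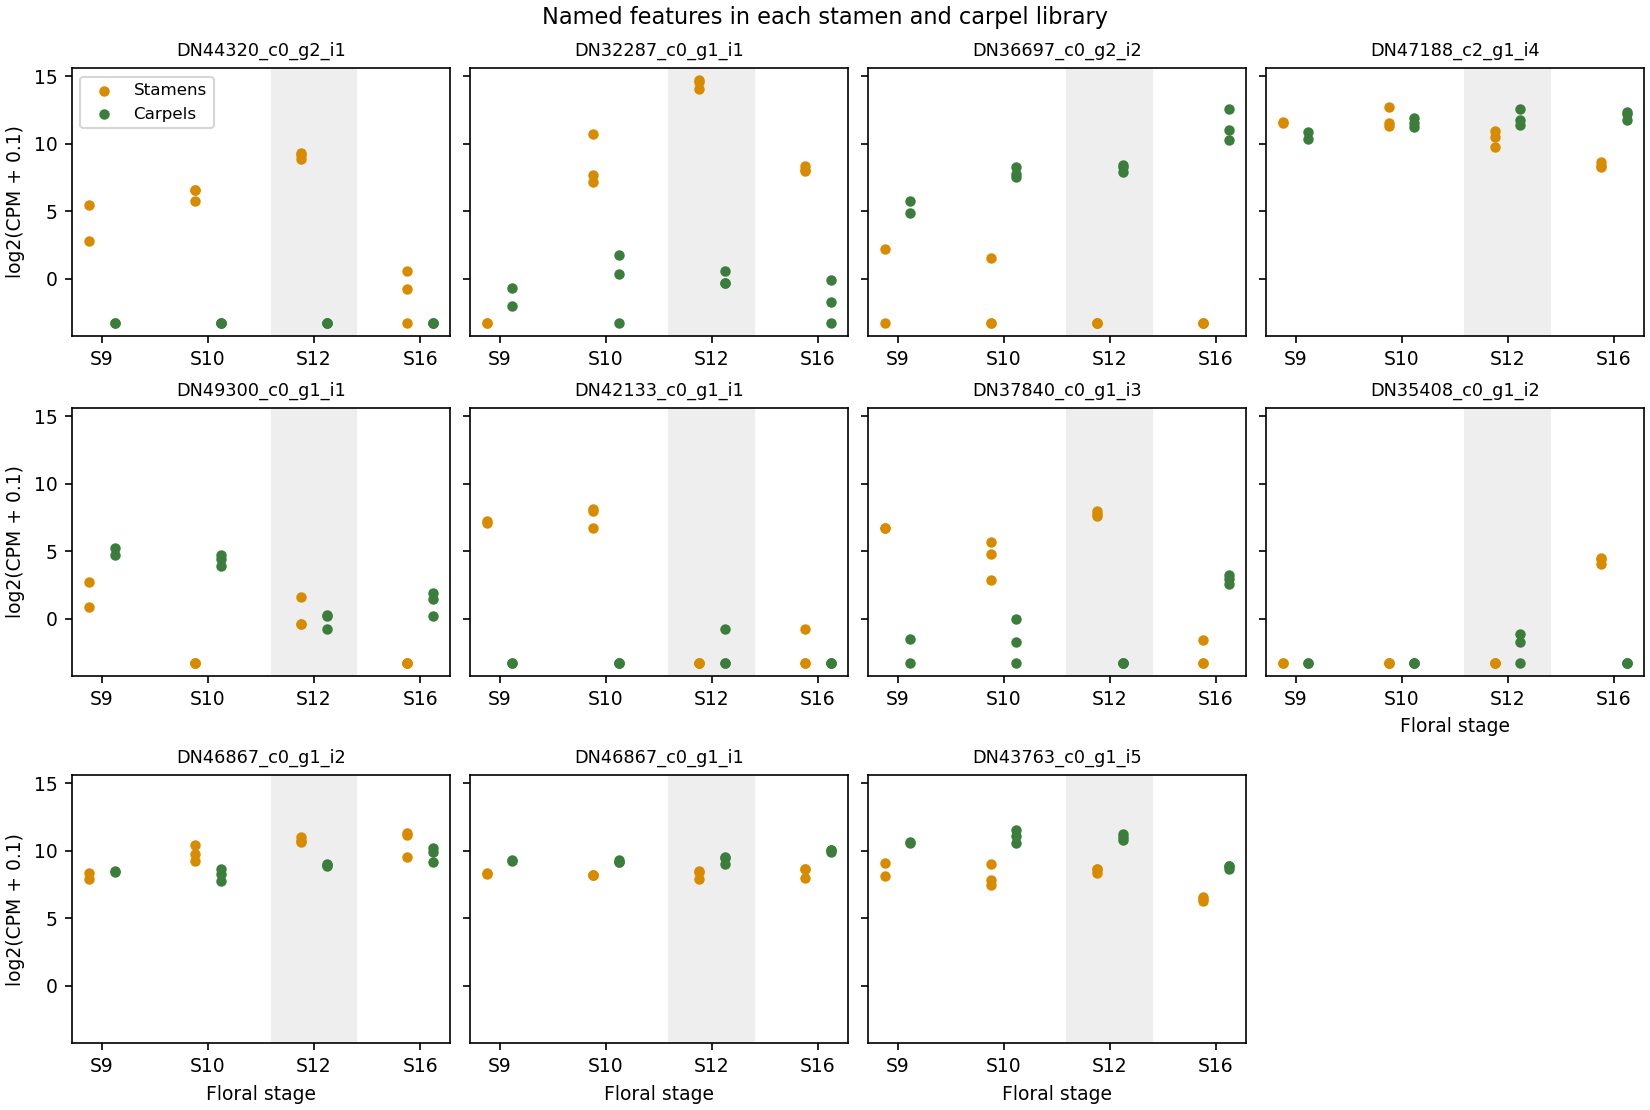
Level of 11 single features described in the text in stamens (orange) and carpels (green) by floral stage, as log2(CPM + 0.1), with 1 point per library and S12 shaded. DN44320 and DN32287 are highest in S12 stamens, and DN36697 is highest in S16 carpels.

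In the stamen libraries a few features took a larger share of the counts. The 10 most abundant features took 5.12%, 5.10% and 8.63% of the counts in stamens and 3.17%, 3.48% and 3.97% in carpels. The organs did not overlap, with means of 6.29% ± 2.03 and 3.54% ± 0.400 (SD, n = 3; two-sided exact permutation p = 0.1, the smallest that 3 against 3 can give). The difference of 2.75 percent points was 1.57 without stamen replicate 3, the library at 8.63%. The number of features needed to reach 50% of counts was 1102 ± 75.03 in stamens and 1369 ± 66.1 in carpels (SD, n = 3; two-sided exact permutation p = 0.1). The number of features detected was 21820 ± 933.2 in stamens and 22120 ± 712 in carpels (SD, n = 3; two-sided exact permutation p = 0.5).

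The stamen-side features together took 31.2% ± 2.30 of all counts in stamens and 5.31% ± 0.231 in carpels (SD, n = 3). The carpel-side features took 17.0% ± 1.09 in carpels and 3.27% ± 0.343 in stamens (SD, n = 3). These shares follow from how the features were chosen and carry no test. Of the 100 most abundant features in each organ, 31 were shared. Of the 100 in stamens, 68 were higher in stamens and 3 higher in carpels, while of the 100 in carpels, 36 were higher in carpels and 3 higher in stamens.

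Some features were detected in 1 of the organs only. With at least 10 counts in each of 3 libraries of an organ and 0 in all 3 of the other, 123 features were found only in stamens and 50 only in carpels. At least 5 counts gave 175 and 73, and at least 20 counts gave 85 and 33. Without carpel replicate 1 or 2 the stamens-only number was 185 and 201, and without stamen replicate 2 the carpels-only number was 96. Most were low, with a median of 8.93 CPM for the stamens-only and 5.56 CPM for the carpels-only features. The highest were the features DN44320 and DN36697 described above.

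The stamens-only features were low in leaves. Of the 123, 33 were also at 0 in the 8 carpel libraries of other stages, and 74 were at 0 in the 4 leaf libraries. Of the 50 carpels-only features, 1 was at 0 in the 8 stamen libraries of other stages and 4 were at 0 in leaves. As a part of the library total per 1e+06 counts, without TMM scaling, the stamens-only features summed to 2861 to 4477 CPM in S12 stamens. In S10 stamens the sum was 7851 to 10190 CPM and in S16 stamens 3909 to 15540 CPM. The highest S10 and S16 values came from S10 replicate 1 and S16 replicate 3, each under 19000 features. The other S16 stamen libraries held 3909 and 4070 CPM. In leaves the same sum was 6.11 to 15.4 CPM. The carpels-only features summed to 683.6 to 839 CPM in S12 carpels, 316.2 to 410.4 CPM in leaves and 1714 to 6425 CPM in S16 carpels. The 6425 CPM was in S16 carpel replicate 3, under 19000 features, against 2578 and 1714 CPM in its replicates.

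In S12 sepals and petals, 9 of the 123 stamens-only features and 2 of the 50 carpels-only features were at 0 in all 15 libraries. Petals showed an uneven level of the stamens-only features. Replicate 1 of the dorsal petals held 80 of them with a sum of 91.5 CPM, against 7.27 and 18.4 CPM in the other replicates. Replicate 2 of the lateral petals held 76 with a sum of 557.2 CPM, against 13.2 and 8.58 CPM in the others. The same libraries were high in DN32287, the most abundant stamen feature, with 535 and 452.5 CPM against 1.502 to 10.1 CPM in the other 4 petal libraries. The lists and the comparison of organs below are given with and without these petal libraries.

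**Figure D3:**
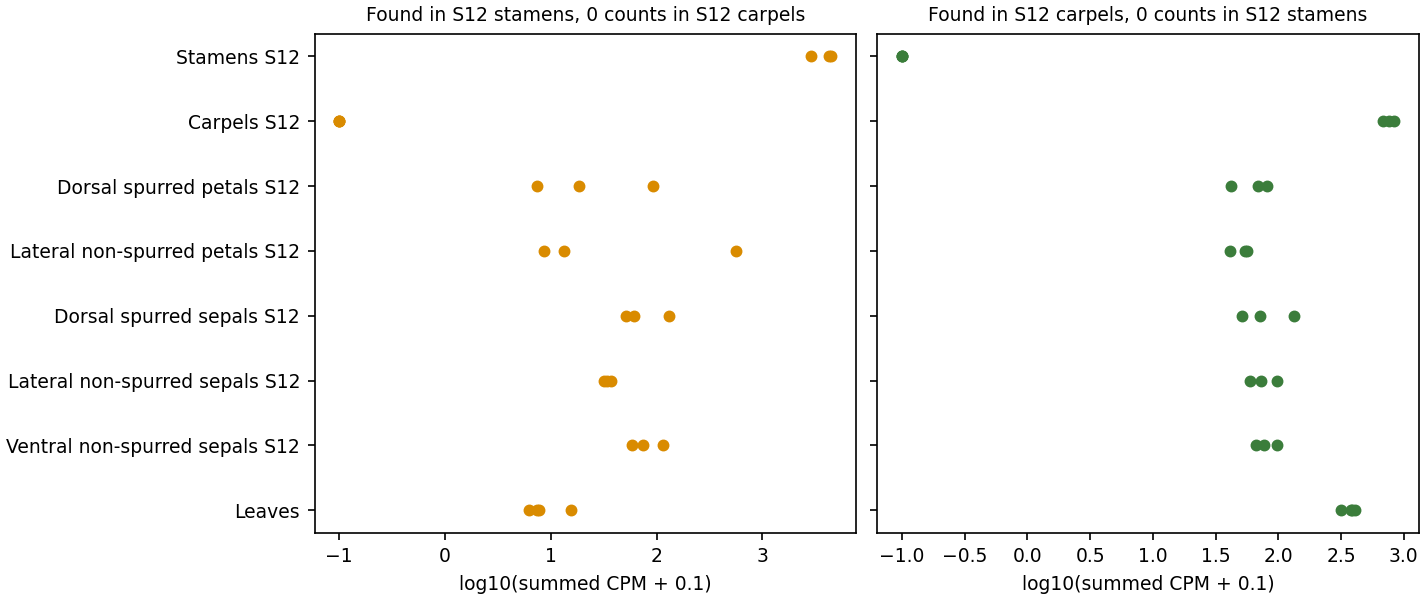
Summed CPM, as log10(summed CPM + 0.1), of the 123 stamens-only features (left) and the 50 carpels-only features (right) in S12 organs and leaves, 1 point per library. By construction the opposite organ lies at 0 counts, 1 dorsal and 1 lateral petal library stand to the right of their replicates on the left, and leaves hold 316.2 to 410.4 CPM of the carpels-only features.

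Agreement of the organ labels across stages was checked with the stamen and carpel libraries of S10 and S16, which share no sample with S12. The calls at all 3 stages came from the same fit over 22 libraries, so they share scaling, filter and the estimate of spread. A swap of the 2 organ names at every stage would give the same agreement. At S10, 2100 features (9.7%) differed between stamens and carpels, and at S16 4880 (22.5%) did (edgeR quasi-likelihood test). Of the 1522 features (7.03%) higher in stamens at S10, 723 were also higher in stamens at S12 and 11 were higher in carpels. Of the 578 (2.67%) higher in carpels at S10, 374 were higher in carpels at S12 and 4 in stamens. Of the 2208 (10.2%) higher in stamens at S16, 676 were stamen-side at S12 and 13 carpel-side. Of the 2672 (12.3%) higher in carpels at S16, 699 were carpel-side and 35 stamen-side. Over all tested features the same counts were 1298 and 865 of 21660. The shares called in the list's own direction were 47.5% and 64.7% for the S10 lists and 30.6% and 26.2% for the S16 lists, against 5.99% and 3.99% of all tested features. Without the libraries under 19000 features, which change the lists as well, the shares of the S16 lists were 55.3% and 56%, against 20.8% and 19.3%. The S10 lists would then rest on 1 S10 carpel library, so their shares are not given. The S16 stamen share was 19.7% without carpel S12 replicate 2, and the S16 carpel share was 15.9% without stamen S12 replicate 1 and 41% without stamen S16 replicate 3. The median log2 differences at S12 were 2.47 and -2.21 for the S10 lists and 1.32 and -1.20 for the S16 lists, against -0.01 over all tested features. With each comparison fitted on its own libraries, the medians of the S10 lists were 3.19 and -2.42.

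Read the other way, the features called at S12 were shared with the neighbouring stages to unlike extents. Of the 1298 stamen-side features, 723 (55.7%) were higher in stamens at S10 and 676 (52.1%) at S16. Of the 865 carpel-side features, 374 (43.2%) were higher in carpels at S10 and 699 (80.8%) at S16. The carpel share at S10 was 27.5% without stamen S10 replicate 2. Without the libraries under 19000 features, the stamen share at S16 was 56.7% and the carpel share 68.6%. The S10 shares are not given for that fit, which leaves 1 S10 carpel library. At S9, 1105 features (5.1%) differed, 3.6% of the tested features toward stamens and 1.51% toward carpels. There, 282 stamen-side (21.7%) and 100 carpel-side features (11.6%) were called in the same direction. Both S9 stamen libraries detected fewer than 19000 features (14972 and 18784), so S9 could not be compared without such libraries. Called in the same direction at S10, S12 and S16 were 366 stamen-side and 316 carpel-side features, and 251 and 100 were called at neither S10 nor S16. The number of calls and the number of libraries under 19000 features differ between these stages, and their part in the shares was not tested.

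The levels of both sets varied with stage mostly in stamens. The stamen-side set had a median of 4.58 to 4.87 log2 CPM in S9 stamens, 5.51 to 6.18 at S10, 6.58 to 6.67 at S12 and 5.78 to 6.05 at S16. In carpels the same set lay between 2.47 and 3.55 at all 4 stages. The carpel-side set had a median of 6.32 to 6.34 log2 CPM in S9 carpels and 5.84 to 6.04 in S16 carpels. In stamens that set lay lower at each later stage, at 5.28 to 5.50, 4.47 to 4.98, 3.27 to 3.61 and 2.28 to 2.43 log2 CPM. The sets were chosen on the S12 libraries, so their S12 values are a description.

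**Figure D4:**
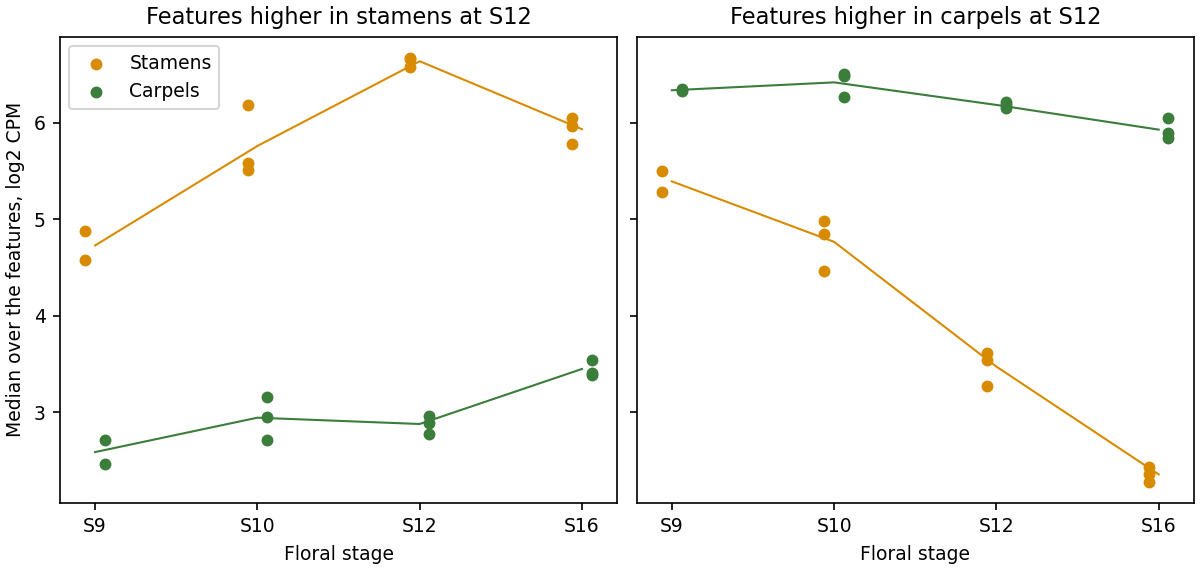
Median log2 CPM of the 1298 stamen-side features (left) and 865 carpel-side features (right) at S9, S10, S12 and S16, with 1 point per library (orange stamens, green carpels) and lines through the group means. The stamen-side set is highest in S12 stamens (6.58 to 6.67), which its choice on the S12 libraries favours. The carpel-side set is lower in stamens at each later stage while it lies between 5.84 and 6.50 in carpels.

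From S10 to S12, few features were called by the test of the change itself. The test can miss a feature at 0 in 1 organ at both stages, as shown for DN44320 below. Of 21660 features, 96 (0.443%) changed their stamen-carpel difference (edgeR quasi-likelihood interaction test), 25 toward stamens at S12 (0.115%) and 71 toward carpels (0.328%). Over the 71, the median level was 106.3 CPM in S10 stamens and 1.52 CPM in S12 stamens, and 13.8 CPM in S10 carpels and 24.9 CPM in S12 carpels. Over the 25, the medians were 32.3 CPM in S10 stamens, 218.1 CPM in S12 stamens, 47.9 CPM in S10 carpels and 22.3 CPM in S12 carpels, each taken separately over the features. Without the libraries under 19000 features, which leaves 1 S10 carpel library whose spread is taken from the other groups, 363 features changed toward stamens and 561 toward carpels. With the replicate number as a block, 35 did, 5 toward stamens and 30 toward carpels. Leaving out stamen S12 replicate 1 or 2 gave 45 and 50 features, and leaving out carpel S12 replicate 1, 2 or 3 gave 50, 48 and 47. Without stamen S10 replicate 3 there were 54, without carpel S10 replicate 3 there were 58 and without stamen S16 replicate 3 there were 258.

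DN42133_c0_g1_i1 had the largest fitted change toward carpels between S10 and S12, and it was the stamen level that differed. Its levels were 105.8, 252.7 and 279.7 CPM in S10 stamens and 0 in all 3 S12 stamen libraries. In carpels it was at 0 in all 3 S10 libraries and at 0, 0.484 and 0 CPM at S12. The feature was thus present in young stamens, with 135.7 to 147.1 CPM at S9, and was not detected in S12 stamens (edgeR interaction adjusted p = 0.00401). The call was lost under the replicate block (adjusted p = 0.1345) and with DESeq2 (0.0777). It was also lost without carpel S12 replicate 2, whose 7 counts were the only ones in S10 and S12 carpels.

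DN49300_c0_g1_i1 changed most toward stamens. It was at 0 in the 3 S10 stamen libraries and at 0.653, 0.669 and 2.88 CPM at S12, while in carpels it was at 14.9, 21 and 26.1 CPM at S10 and 1.03, 0.484 and 1.11 CPM at S12. The S12 groups overlapped, and the carpel level was the one that differed more between the stages (edgeR interaction adjusted p = 0.0114). The call was lost under the replicate block (adjusted p = 0.164) and without carpel S12 replicate 2 (0.05595).

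From S12 to S16 the difference changed for 1092 features (5.04%; edgeR quasi-likelihood interaction test), 769 (3.55%) more stamen-sided at S12 and 323 (1.49%) more carpel-sided at S12. Over the 769, the median level, taken separately in each group, was 80.3 CPM in S12 stamens and 6.59 CPM in S16 stamens, against 61.3 and 73.0 CPM in carpels. Over the 323, the medians were 30.9 CPM in S12 stamens and 256.7 CPM in S16 stamens, against 32.6 and 24.99 CPM in carpels. Without the libraries under 19000 features, 2874 and 1879 features changed. Without carpel S12 replicate 2 the count was 675, and without stamen S12 replicate 2 it was 721. The test did not call DN44320, which was at 0 in all carpel libraries. Its stamen mean was 556.4 CPM at S12 and 0.608 CPM at S16, with a fitted log2 change of 9.66 (SE 27733). The counts of changed features therefore leave out changes of this kind.

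DN37840_c0_g1_i3 showed the largest fitted change among the features called between S12 and S16. It was at 247.5, 210.2 and 194.8 CPM in S12 stamens and 0 in S12 carpels, and at 0.240, 0 and 0 CPM in S16 stamens and 5.65, 9.04 and 7.44 CPM in S16 carpels. The organs did not overlap at either stage, and the higher organ was stamens at S12 and carpels at S16 (edgeR interaction adjusted p = 1.59e-06). In the other direction, DN35408_c0_g1_i2 was at 0 in S12 stamens and at 16.3, 20.9 and 22.9 CPM in S16 stamens. In carpels it was at 0.344, 0.207 and 0 CPM at S12 and 0 at S16, so of these 4 groups S16 stamens alone held more than 1 CPM (edgeR interaction adjusted p = 0.0111). With the replicate block its adjusted p was 0.121.

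Stamens and carpels were then set beside the other S12 organs. Over 21 libraries of 7 organ groups, 988 of 20864 features (4.74%) were at least 2-fold higher in stamens than in each of the other 6 groups, each at an adjusted p under 0.05 (edgeR quasi-likelihood test). For carpels the number was 415 (1.99%). Leaving out 1 dorsal sepal library under 19000 features gave 1069 and 509. Stamens were the lowest organ by the same rule for 630 features and carpels for 421. Without the pair of petal libraries high in stamens-only features, stamens were highest for 1011 features and lowest for 593, and carpels highest for 217 and lowest for 330. With the replicate block the carpel number was 629.

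The 1267 stamen-side features in that fit had a median of 6.69 ± 0.07 log2 CPM in stamens, 3.06 ± 0.04 in carpels and group means of 3.82 to 4.16 in sepals and petals (SD, n = 3). The 860 carpel-side features had a median of 6.16 ± 0.02 in carpels and 3.47 ± 0.22 in stamens, and group means of 4.01 to 4.34 in sepals and 4.43 to 4.90 in petals. For 1055 of the 1267 and 636 of the 860, the S12 organ with the highest mean was the one that defined the side. The features were chosen on the same stamen and carpel libraries, so these levels and counts follow in part from the choice and carry no test. Without the pair of petal libraries it was so for 1071 of 1286 and 617 of 864. The feature DN32287 was the most abundant of the 988 as well.

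The most abundant of the 415 was DN43763_c0_g1_i5. It was at 2384, 2040 and 1806 CPM in carpels and 336.3, 409.4 and 411.6 CPM in stamens, groups that lay far apart. The log2 difference was -2.43 (SE 0.37, edgeR adjusted p = 0.000168). Its sepal and petal means at S12 were 437.7 to 881.3 CPM, and carpels exceeded each of the other 6 organs by 1.20 to 2.41 on the log2 scale. In carpels it stood at 1560 CPM at S9, 2232 CPM at S10 and 447.4 CPM at S16.

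Lists made from sepals, petals and leaves share no library with S12 stamens or carpels, and 5.99% of all tested features were stamen-side and 3.99% carpel-side. Petals and sepals differed at 6601 of 20364 features (32.4%), and leaves and petals at 9719 (47.7%; edgeR quasi-likelihood test). Of 2887 features higher in petals than sepals, 186 (6.44%) were stamen-side and 351 (12.2%) carpel-side, with a median log2 difference of -0.44. Of 3529 features higher in sepals than petals, 303 (8.59%) were stamen-side and 166 (4.7%) carpel-side, with a median of 0.14, which was -0.08 when libraries were scaled by their totals. Of 4981 features higher in leaves than petals, 159 (3.19%) were stamen-side and 423 (8.49%) carpel-side, with a median of -0.49. Of 4493 higher in petals than leaves, 493 (11%) were stamen-side and 127 (2.83%) carpel-side, with a median of 0.42. The stamen-side share of the petal over sepal list and the carpel-side share of the sepal over petal list lay near those of all tested features. Calls rose with abundance, from 2.08% stamen-side and 0.439% carpel-side in the lowest of 5 bins of mean CPM to 16.1% and 8.56% in the highest. The library medians were 4.48 to 4.97 log2 CPM for the petal over sepal list and 3.76 to 3.93 for the sepal over petal list. Over all tested features they were 3.68 to 3.74. The part of abundance in the shares of any list was not tested. Without the libraries under 19000 features, the stamen and carpel shares were 18.2% and 40.9% for the petal over sepal list, 28.9% and 21.3% for the sepal over petal list, 12.5% and 36.3% for the leaf over petal list and 35.4% and 12.8% for the petal over leaf list, against 20.8% and 19.3% of all. Leaving out 1 stamen or carpel library moved the sepal list's carpel share between 1.76% (without stamen S12 replicate 1) and 8.09% (without stamen S16 replicate 3), and its stamen share between 4.56% (without carpel S12 replicate 2) and 11.5% (without stamen S16 replicate 3). For the leaf list the carpel share lay between 4.26% and 13.8%, with the same libraries left out as for the sepal list's carpel share. Without the pair of petal libraries named above, the medians were -0.56, 0.26, -0.49 and 0.40 in that order of the lists. The stamen and carpel shares were then 4.8% and 15.4%, 10.5% and 4.94%, 3.89% and 8.99%, and 10% and 3.14%.

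**Figure D5:**
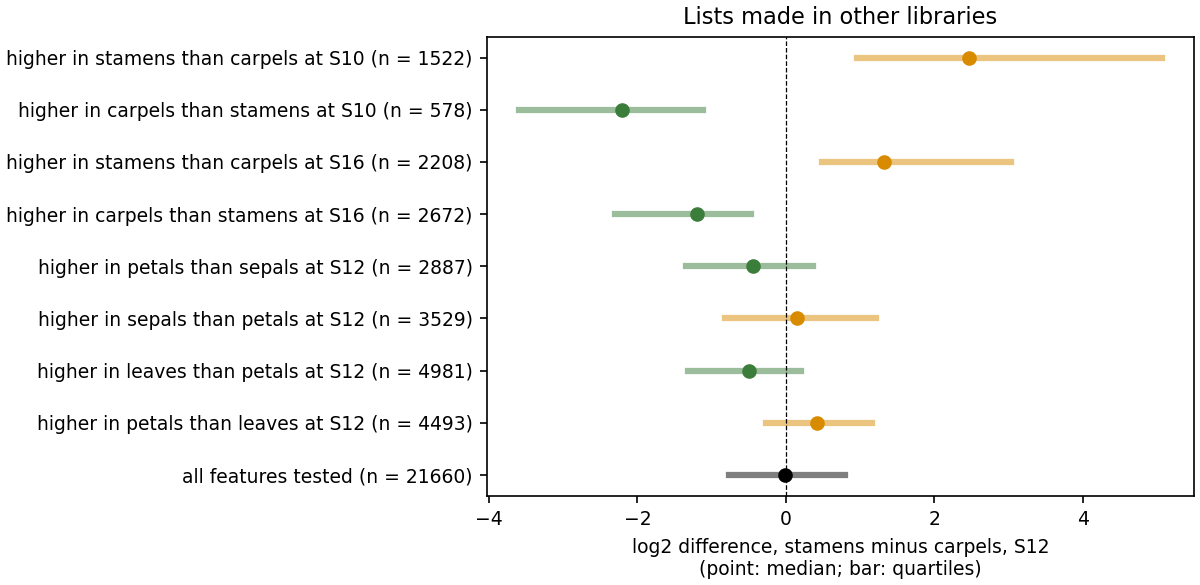
Median (point) and quartiles (bar) of the log2 difference at S12, stamens minus carpels, for lists of features called between other libraries and for all 21660 tested features. Lists from S10 and S16 stamens and carpels lie farthest from 0, with medians from -2.21 to 2.47, and the lists from sepals, petals and leaves lie between -0.49 and 0.42.

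Few assembly genes had features on both sides. Of 1932 assembly genes with more than 1 tested feature, 62 had at least 2 called features, and 4 of them (6.45%) had features called in opposite directions. In DN46867_c0_g1, feature i2 (DN46867_c0_g1_i2) was at 1641, 2132 and 1675 CPM in stamens and 506.2, 518.8 and 467.2 CPM in carpels. Feature i1 (DN46867_c0_g1_i1) was at 366.4, 342.7 and 240 CPM in stamens and 736.7, 694.8 and 517.3 CPM in carpels. Neither feature's groups overlapped, and the log2 differences were 1.87 (SE 0.40, edgeR adjusted p = 0.00417) and -1.04 (SE 0.26, edgeR adjusted p = 0.0114). The sum over the gene was 2582 CPM in stamens and 1220 CPM in carpels. Reads shared between features of a gene are divided by estimation, so each value is uncertain, and the i1 call was lost without stamen replicate 2 or 3 or carpel replicate 1 or 2 (adjusted p = 0.0579 to 0.116). With the replicate block, 2 such genes were found, and without the libraries under 19000 features 68. Leaving out stamen S12 replicate 1, 2 or 3 gave 2, 2 and 1, carpel S12 replicate 1 or 2 gave 1 each, and stamen S16 replicate 3 gave 7.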

How the data were processed

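RNA was extracted with an RNAprep Pure Plant Kit and made into libraries with a Fast RNA-seq kit, per the labels' protocols. TopHat2 and RSEM are named, without versions or roles, per the submitters' processing notes. Reference, annotation and strandedness: not given in the sources used here. Estimated counts per feature, not normalized, were deposited by the authors, and 94.1% to 95.9% of them are whole numbers. They were rounded here. The 22 stamen and carpel libraries held 4944386 to 13292619 counts. Feature IDs are not paired with gene names, so few are printed (without the reading-frame suffix) and no sequence is shown.

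Groups were taken from titles. Rounded counts of all 22 stamen and carpel libraries were fitted with edgeR 4.0.16 in R 4.3.3 (TMM scaling, filterByExpr, robust quasi-likelihood F test, 1 mean per group), with Benjamini-Hochberg adjustment over all tested features and a threshold of 0.05. The biological coefficient of variation was 0.751 over 22 libraries, 0.342 over the 6 S12 libraries and 0.317 without libraries under 19000 features. The SE is the log2 difference divided by the square root of F. Changes between stages were interaction contrasts. Lists compare libraries other than S12 stamens and carpels. The S10 and S16 lists came from the same fit over 22 libraries, so the S12 libraries share their scaling, filter and estimate of spread. The lists from sepals, petals and leaves came from a separate fit. The members, lists and tests were chosen with earlier results of these data known. The scripts were tested on simulated data with the same spread for every feature. That setting is unlike the 22 libraries, so the simulation does not measure error rates here.

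Named features are, per direction, the largest fitted fold and the highest mean CPM among called features whose groups do not overlap, with at least 1 CPM in the higher organ. For each change between stages the largest change with at least 10 CPM in a group is named. The most abundant organ-highest features and the gene with opposite calls of highest level are also named. CPM of a feature were scaled by TMM within its own fit. A group without counts was given 3 counts over the group, on that scale, for a fold. No pair of replicates agreed within sampling noise (chi-square per feature at least 15.2). Same-numbered stamen and carpel libraries deviated together at S12 (r = 0.352, 0.216 and 0.379), where different numbers gave -0.349 to 0.0902. At S16 the same numbers gave 0.121, 0.157 and 0.142, but stamen 1 with carpel 2 gave 0.117 and stamen 2 with carpel 1 0.109. At S10 they gave 0.143, 0.135 and 0.0605, and stamen 3 with carpel 2 gave 0.152. The numbers were thus taken to pair S12 libraries, and pairing at S10 and S16 stayed unclear. The main fit did not use the pairing, so the calls and p-values in the text are unpaired unless the replicate block is named. Alternatives used DESeq2 1.42.0, limma 3.58.1 (voom with quality weights), other filters and scalings, a replicate block, sums per assembly gene and each replicate left out.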

Additional observations from a re-analysis of the deposited data

Results flagged for a closer look

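The stamen-carpel difference at S12 was not the same as at the neighbouring stages for 96 features against S10 and for 1092 features against S16, by the edgeR interaction test. The features with the largest change were DN49300_c0_g1_i1 and DN42133_c0_g1_i1 between S10 and S12, with fitted log2 changes of 11.05 and -17.49. Between S12 and S16 they were DN37840_c0_g1_i3 and DN35408_c0_g1_i2, with 19.87 and -14.1. Each has a group at 0, so the fitted size depends on the small count added to zeros and is not a measured fold; the levels in every library are in the text above.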

How the results depend on the processing

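Under the alternatives tried, the S12 comparison and the changes between stages kept calls in both directions, and the stamen and carpel lists from S10 and S16 kept the direction of their medians. The S12 comparison called 3478 features with DESeq2, 7343 with the 6 S12 libraries sharing the spread, 9074 without libraries under 19000 features, 9882 with limma voom and 1198 against a 2-fold difference, and 1221 to 3100 with 1 library left out. The change from S10 to S12 was called for 477 features with DESeq2, 165 with the compared stages sharing the spread, 924 without libraries under 19000 features and 2371 with voom, with 45 to 258 when 1 library was left out. The change from S12 to S16 was 2210 with DESeq2, 4753 without those libraries and 8118 with voom, and 675 to 1311 with 1 library left out.

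With the replicate block, in which the same-numbered libraries of a stage are paired, the change from S10 to S12 was called for 35 features, of which 14.3% were toward stamens against 26.0%, carpels were highest among organs for 629 features and 2 assembly genes had opposite calls. The block gave 1831 calls at S12 and 838 for the change from S12 to S16, and of the single features named in the text it ended no call but those of DN49300_c0_g1_i1, DN42133_c0_g1_i1 and DN35408_c0_g1_i2. Without libraries under 19000 features, 39.3% of the changes from S10 to S12 were toward stamens.

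The medians of the list higher in stamens at S10 were 1.70 with DESeq2, 3.19 with the compared groups alone, 2.12 with the block, 1.37 without those libraries, 1.17 with voom and 3.27 at 4-fold or more, and 1.93 to 2.87 with 1 library left out. Those of the list higher in carpels at S10 were -1.84, -2.42, -1.87, -1.43, -1.32 and -3.05 in the same order, -2.38 without a filter on low counts, and -2.43 to -1.81 with 1 library left out. Those of the list higher in stamens at S16 were 1.07 with DESeq2, 0.90 without those libraries, 0.73 with voom and 1.93 at 4-fold or more, and 1.20 to 1.45 with 1 library left out. Those of the list higher in carpels at S16 were -1.40 with the compared groups alone, -0.92 without those libraries, -0.80 with voom and -1.50 at 4-fold or more, and -1.31 to -1.15 with 1 library left out.

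The median of the sepal list turned from 0.14 to -0.079 when libraries were scaled by their totals, which lowers all differences; it was 0.70 at 4-fold or more and 0.26 without the pair of petal libraries. With 1 library left out it was 0.14 to 0.27. The petal list was at -0.36 with the block, -0.50 by totals, -0.91 at 4-fold or more and -0.56 without that pair, and at -0.46 to -0.35 with 1 library left out. The leaf list was at -0.84 by totals and -0.90 at 4-fold or more, and at -0.50 to -0.36 with 1 library left out, and the list higher in petals than leaves at 0.036 and 0.81, and at 0.35 to 0.56. The option to drop that pair was chosen after seeing the data.

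Carpels were highest among the S12 organs for 856 features with voom, 217 without the pair of petal libraries and 293 to 427 with 1 library left out, and stamens for 861 to 954. The carpels-only count was 33 at 20 counts and 53 to 96 with 1 library left out, and the stamens-only count 140 to 201. Assembly genes with opposite calls numbered 8 with DESeq2, 42 with the 6 libraries, 68 without those under 19000 features, 85 with voom, 2 by totals and 1 to 7 with 1 library left out. Where the cause of a change is not given by its construction, the cause was not tested. The shares of lists called on each side with 1 library left out were 34.6% to 61.2% and 50.5% to 71.8% in their own direction for the S10 lists, 19.7% to 36.7% and 15.9% to 41% for the S16 lists, and 4.33% to 8.21% (stamen side) and 7.11% to 17.9% (carpel side) for the petal over sepal list. The stamen side of the list higher in carpels at S10 fell from 4 features to 0% without stamen S12 replicate 1. For the petal over leaf list these were 6.71% to 14.6% and 1.49% to 4.36%, and for the leaf list's stamen side 1.71% to 4.42%. Depth limits features of a few CPM, since 3 counts are 0.207 to 0.479 CPM, and 3 libraries per organ cannot give an exact permutation p under 0.1.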
